A study of Mus musculus with 6 samples.

Results

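The macrophage transcripts of sciatic nerve were described through 34 genes, chosen by name as known genes of macrophages, and all 34 were found among the 20239 named genes of the arrays. Gene expression had been measured in whole sciatic nerves of mice aged 25 days, with 1 Affymetrix whole-transcript array per mouse. The 3 mutants had the genotype DhhCre::Sip1 flox/flox and the 3 controls Sip1 flox/flox, so that both groups carried the floxed alleles and only the mutants carried Cre. Sip1 is the older name of Zeb2, which encodes a zinc finger transcription factor. Cre driven by the regulatory sequences of desert hedgehog is active in the Schwann cell lineage, to which macrophages do not belong, although macrophages also express Zeb2. The labels call the samples biological replicates and give no litter or sex, and p-values measure the spread between these 6 mice.

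Peripheral nerves hold resident macrophages in the endoneurium, among the nerve fibres, and in the epineurium, the outer sheath with its vessels and fat. They depend on the receptor Csf1r, which binds Csf1 and Il34, and on the transcription factor Spi1, also called PU.1. After nerve injury, monocytes enter the nerve and become phagocytes that remove myelin. The 34 genes were divided by textbook role into 16 pan-macrophage genes, 9 resident-type genes typical of perivascular and epineurial macrophages, 8 recruited-type genes typical of monocyte-derived or phagocytic cells, and the ligand Csf1. Several members are shared with other cells, as named below.

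The deposited values are on a log2 scale, with array medians of 8.02 to 8.11 over the named genes, and having 3 arrays a group limits the precision. Zeb2 read 10.96, 10.66 and 11.01 for mutants 1 to 3, against 11.67, 11.57 and 12.02 for controls 1 to 3 (log2 fold change -0.88, SE 0.15, limma adjusted p = 0.0137, and 0.0522 without mutant 1). The nerves differed in other tissue: 18 skeletal muscle markers averaged 7.58, 12.25 and 9.56 in the mutants against 7.54, 12.38 and 10.10 in the controls, and 11 adipocyte markers averaged 10.26, 10.80 and 10.14 against 12.09, 11.11 and 9.72. Of the 6 measured Schwann cell markers, 2 rose and 2 fell, each by over 1 on the log2 scale: Gfap (log2 fold change 4.55, adjusted p = 0.000156) and Ncam1 (1.44, adjusted p = 0.00543) rose, and S100b (-1.51, adjusted p = 0.00559) and Erbb3 (-1.14, adjusted p = 0.0162, and 0.0635 without mutant 1 and 0.051 without mutant 3) fell. Over all genes 5.74% rose and 3.89% fell at a limma adjusted p under 0.05. By Xist and Y-linked genes, mutants 1 and 2 and control 3 were male, and the other arrays female.

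Macrophage transcripts stood higher in the mutant nerves for most members, by small amounts. The log2 fold change was above 0 for 31 of the 34 members, against 45.9% of all genes. Its median was 0.33, against -0.02 over all genes. The members moved together across arrays, so the 31 are not separate observations. Control 1 was the highest control for 32 members, against 8958 of all 20239 genes, and mutant 2 the lowest mutant for 27, against 8216. The 34 members averaged 9.26, 9.06 and 9.36 in mutants 1 to 3, against 9.16, 8.86 and 8.64 in controls 1 to 3. By this mean, control 1 lay above mutant 2. Of the 34 members 3 rose, the lysozyme Lyz1 and the cathepsins Ctss and Ctsk, none fell and 31 did not pass the limma test at an adjusted p under 0.05. Over all genes 5.74% rose, 3.89% fell and 9.62% changed in either direction. At an unadjusted p under 0.05, 16 members were higher, against 13.7% of all genes, and 1 was lower, Gpnmb, against 8.67% of all genes. All 3 mutant values lay above all 3 control values for 13 members, against 16.3% of all genes, and below them for Gpnmb alone, against 11.8% of all genes. In a whole nerve, more cells of a type and more RNA per cell cannot be told apart.

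**Figure D1:**
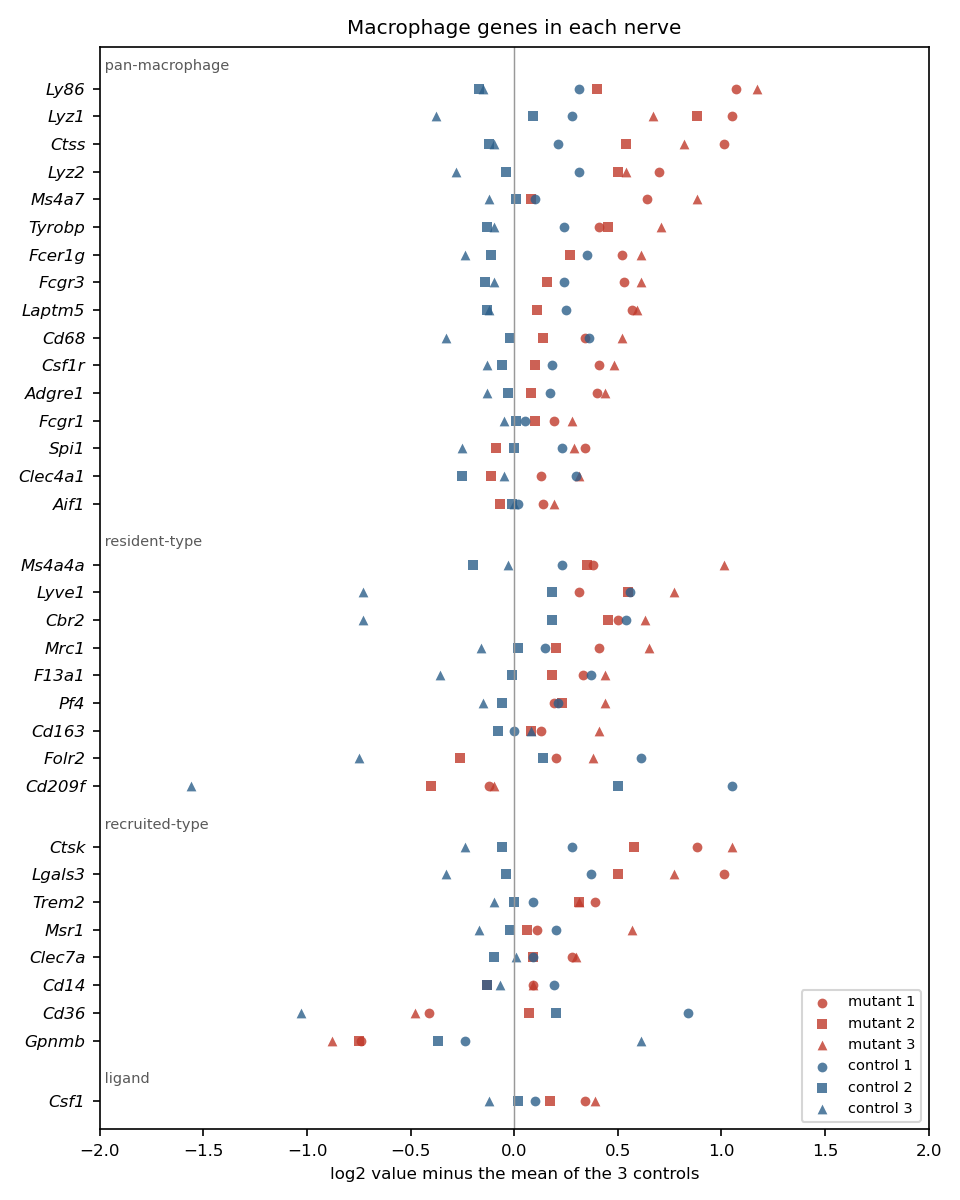
The log2 value of each of the 34 members in each of the 6 nerves, minus the mean of the 3 controls (horizontal axis), with mutants in red and controls in blue and 1 marker shape per replicate number. All 3 mutants stand right of all controls for 6 of the 16 pan-macrophage genes, control 3 stands far left for Cd209f, Lyve1, Cbr2 and Folr2, and Gpnmb has all 3 mutants to the left.

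The count of 3 depended on single samples. It was 0 without mutant 1, without mutant 3 or without control 2, it was 1 (Lyz1) without control 3, 4 (Ctss, Ms4a7, Ly86 and Ctsk) without mutant 2 and 7 (Lyz1, Lyz2, Ctss, Ctsk, Tyrobp, Fcer1g and Lgals3) without control 1. In these 6 fits 2.48% to 6.90% of all genes were higher. The replicate number, used as a block, gave 6 members higher, against 5.95% of all genes, adding Lyz2, Ly86 and Lgals3 to the same 3 genes. Without mutant 2 and control 2, the nerves richest in muscle transcripts, 3 members were higher, namely Ctss, Ms4a7 and Ly86, against 4.3% of all genes. The median difference over the 34 members was 0.16, 0.18 and 0.77 between mutant and control of number 1, 2 and 3, and the third of these involves control 3.

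**Figure D2:**
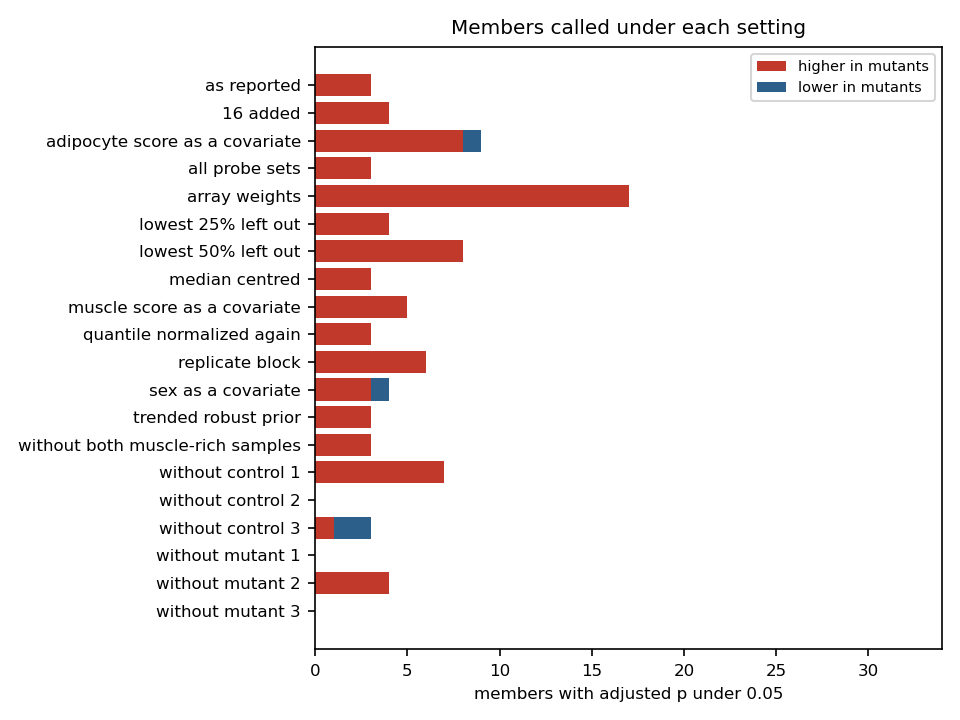
The number of the 34 members with a limma adjusted p under 0.05 (horizontal axis), higher in red and lower in blue, for the fit as reported and 19 alternative settings (33 and 26 members were tested with the lowest 25% and 50% of genes left out). The count of higher members ran from 0 without mutant 1, mutant 3 or control 2 to 17 with array weights, where 11.9% of all genes were higher.

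The ligand Csf1, the growth factor that fibroblasts, endothelial cells and other cells supply to macrophages, stood at 9.54, 9.37 and 9.59 in the mutants against 9.30, 9.22 and 9.08 in the controls. The 2 groups did not overlap, but the difference of 0.30 on the log2 scale (SE 0.10) did not pass (adjusted p = 0.134). Its receptor Csf1r was at 10.35, 10.04 and 10.42 in the mutants against 10.12, 9.88 and 9.81 in the controls (log2 fold change 0.33, SE 0.14, adjusted p = 0.206), with mutant 2 below control 1. The other ligand of Csf1r, Il34, was outside the 34 genes and was looked at after its values were seen. It went the other way, at 9.70, 9.45 and 9.85 in the mutants against 10.14, 10.26 and 10.88 in the controls (log2 fold change -0.76, SE 0.21, adjusted p = 0.0714), without overlap of the groups and without passing the test. None of the 8 genes of the colony-stimulating factor axis, Csf1, Csf1r and Il34 included, passed in limma, and their median log2 fold change was 0.00. At an unadjusted p under 0.05, 2 were higher, against 13.7% of all genes, and 1 lower, against 8.67%.

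Spi1, the transcription factor that sets up the macrophage programme, was at 8.76, 8.33 and 8.71 in the mutants against 8.65, 8.42 and 8.17 in the controls, with overlapping groups (log2 fold change 0.18, SE 0.16, adjusted p = 0.585). Of 15 measured transcription factors of macrophages, Spi1 included, 1 rose and 1 fell, where 5.74% of all genes rose and 3.89% fell. Runx1, a factor of blood cell development, rose by 0.66 on the log2 scale (SE 0.14, adjusted p = 0.0296), a call that held with 1 sample left out only without mutant 2 (0.0284) or control 3 (0.0214). Maf, a factor of resident macrophages that other cells of the nerve express as well, fell from 11.70 ± 0.22 to 10.51 ± 0.03 (mean ± SD, n = 3 each, log2 fold change -1.19, SE 0.12, adjusted p = 0.00204), and passed in all 6 such fits. Every Maf value of the mutants lay below every control value.

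Of the widely used markers Adgre1, Cd68 and Aif1, none passed in limma, and none had an unadjusted p under 0.05. Adgre1, an adhesion receptor of most tissue macrophages, was at 8.97, 8.65 and 9.01 in the mutants against 8.74, 8.54 and 8.44 in the controls (log2 fold change 0.31, SE 0.13, adjusted p = 0.232). Cd68, a glycoprotein of late endosomes and lysosomes, was at 10.07, 9.87 and 10.25 against 10.09, 9.71 and 9.40 (0.33, SE 0.19, adjusted p = 0.378). The groups overlapped for both genes, since control 1 lay above mutant 2 for Adgre1 and above mutants 1 and 2 for Cd68. Aif1, which encodes the actin-binding protein Iba1, was at 6.14, 5.93 and 6.19 in the mutants against 6.02, 5.99 and 6.0 in the controls (0.08, SE 0.09, adjusted p = 0.672). It was the 1 member among the lowest 25% of genes by mean value.

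The 8 members of immune recognition and signalling, set apart here from the 16 pan-macrophage genes, all had differences above 0. None passed in limma, where 5.74% of all genes rose. At an unadjusted p under 0.05, 6 were higher (not Fcgr1 and Clec4a1), against 13.7% of all genes. Over all 16 pan-macrophage genes, 10 were higher at that level. Tyrobp, the adaptor DAP12 that couples Trem2 and other receptors to kinases, was at 9.77, 9.81 and 10.07 in the mutants against 9.60, 9.23 and 9.26 in the controls, without overlap (log2 fold change 0.52, SE 0.14, adjusted p = 0.0597). With the replicate number as a block the adjusted p of Tyrobp was 0.0777. Fcer1g, the shared gamma chain of Fc receptors, differed by 0.47 (adjusted p = 0.163) and the Fc receptors Fcgr3 and Fcgr1 by 0.43 (adjusted p = 0.155) and 0.19 (adjusted p = 0.255). Ly86, also called MD-1, a partner of the Toll-like receptor homologue RP105, had the largest difference of all members, 0.88 (SE 0.23, adjusted p = 0.0609), at 10.43, 9.76 and 10.53 against 9.67, 9.19 and 9.21. The groups did not overlap, mutant 2 was the lowest of the mutants, and Ly86 passed without mutant 2 (adjusted p = 0.015) and with the replicate number as a block (0.0213). The lysosomal membrane protein Laptm5 differed by 0.43 (adjusted p = 0.198), the tetraspan protein Ms4a7 by 0.54 (adjusted p = 0.171, 0.0164 without mutant 2 and 0.452 without mutant 3) and the lectin receptor Clec4a1 by 0.11 (adjusted p = 0.754). Of 12 measured genes of DAP12 and Fc receptor signalling, Tyrobp and Fcer1g included, none passed in limma. At an unadjusted p under 0.05, 4 were higher, against 13.7% of all genes, and 1 lower, against 8.67%.

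The 3 members that rose encode secreted or lysosomal enzymes. Lyz1 (Entrez gene 17110), a lysozyme that Paneth cells also make, was at 10.51, 10.34 and 10.13 in the mutants against 9.74, 9.55 and 9.08 in the controls, every mutant above every control. It rose 1.83-fold (log2 fold change 0.87, SE 0.18, 95% confidence interval 0.44 to 1.31, adjusted p = 0.0296). Lyz2 (Entrez gene 17105), the lysozyme of macrophages and neutrophils, was at 11.76, 11.56 and 11.60 against 11.37, 11.02 and 10.78, also without overlap, and did not pass (log2 fold change 0.58, SE 0.15, adjusted p = 0.065, and 0.0311 with the replicate number as a block). Its adjusted p was 0.234 without mutant 1 and 0.187 without mutant 3. The call of Lyz1 was lost without mutant 1 (adjusted p = 0.122), mutant 2 (0.0731), mutant 3 (0.0657) or control 2 (0.0684), with sex as a covariate (0.0535) and without both muscle-rich samples (0.121).

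Lyz1 and Lyz2 are tandem copies on chromosome 10, 5522 bases apart with no annotated gene between them, and array probes may read both, so their separate values are uncertain. The likeness of their upstream sequences is shown by the 250 bases before each start, from RefSeq on GRCm38.p6. These bases lie before the transcript and do not show what the probes read. An alignment of the windows held 200 identical and 48 mismatched positions (80.6% identity), and the last 50 bases before the start, in capitals, were the same in both.
Lyz1, chr10:117292869-117293118, minus strand: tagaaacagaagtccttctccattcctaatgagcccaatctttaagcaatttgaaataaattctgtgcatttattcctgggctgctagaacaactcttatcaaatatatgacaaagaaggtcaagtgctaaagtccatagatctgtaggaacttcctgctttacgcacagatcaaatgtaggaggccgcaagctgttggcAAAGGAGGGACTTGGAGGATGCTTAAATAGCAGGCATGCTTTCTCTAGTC
Lyz2, chr10:117282273-117282522, minus strand: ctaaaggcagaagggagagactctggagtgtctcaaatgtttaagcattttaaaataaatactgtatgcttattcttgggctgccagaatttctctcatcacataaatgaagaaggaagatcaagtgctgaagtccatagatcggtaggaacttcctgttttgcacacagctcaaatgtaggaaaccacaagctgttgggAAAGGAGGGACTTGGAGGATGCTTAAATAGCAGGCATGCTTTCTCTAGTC

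Ctss (Entrez gene 13040), a cysteine protease of antigen-presenting cells that processes the invariant chain, was at 9.46, 8.99 and 9.27 in the mutants against 8.66, 8.33 and 8.35 in the controls. All mutants lay above all controls, and the rise was 1.74-fold (log2 fold change 0.80, SE 0.15, 95% confidence interval 0.44 to 1.15, adjusted p = 0.0194). Ctsk (Entrez gene 13038), the collagen-degrading cathepsin of osteoclasts, which fibroblasts also express, was at 10.34, 10.04 and 10.51 against 9.74, 9.40 and 9.22, without overlap (1.79-fold, log2 fold change 0.84, SE 0.17, 95% confidence interval 0.43 to 1.25, adjusted p = 0.0262). Without mutant 1, mutant 3, control 2 or control 3 the adjusted p was 0.0776, 0.0877, 0.0661 and 0.058 for Ctss and 0.107, 0.106, 0.0804 and 0.0658 for Ctsk, and Ctsk did not pass without both muscle-rich samples either (0.0647).

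Ctsk and Ctss lie close together on chromosome 3 of the GRCm38.p6 annotation. Between them are 17398 bases with 1 annotated gene, which is not protein-coding. The 250 bases before their starts are shown because these 2 of the 3 genes that rose lie close together. GAGGAAG, a form of the PU.1 motif, is in capitals on either strand. Ctsk held GAGGAAG at 227 to 233 bases before the start on the strand of the gene. On the opposite strand Ctsk held it at 53 to 59 bases before the start. The Ctss window held no GAGGAAG, although it held the shorter GAGGAA, which was not searched for.
Ctsk, chr3:95498960-95499209, plus strand: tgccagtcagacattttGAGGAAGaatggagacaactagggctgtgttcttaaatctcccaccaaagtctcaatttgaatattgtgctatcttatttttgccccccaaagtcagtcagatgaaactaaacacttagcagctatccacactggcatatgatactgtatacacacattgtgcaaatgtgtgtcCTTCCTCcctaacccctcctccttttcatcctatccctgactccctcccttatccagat
Ctss, chr3:95526536-95526785, plus strand: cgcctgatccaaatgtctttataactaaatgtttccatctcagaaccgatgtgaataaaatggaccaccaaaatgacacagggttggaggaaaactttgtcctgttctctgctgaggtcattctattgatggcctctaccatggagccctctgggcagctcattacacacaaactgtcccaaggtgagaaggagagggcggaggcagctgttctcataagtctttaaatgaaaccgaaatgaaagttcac

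Promoters were found in the RefSeq table for 27 of the 34 members, 32 windows in all. GAGGAAG, searched on both strands, was in 11 of the 32 windows, against 10.6% of 32851 windows of the same length. The windows of Cbr2, Clec4a1, Ctsk, F13a1, Fcgr1, Fcgr3, Laptm5, Mrc1, Pf4 and Trem2 held it. The longer overlapping forms GAGGAAGT and AGAGGAAG were in 1 and 5 member windows, against 2.44% and 3.67% of all windows, and TCATGTG, a motif of MITF-type factors, was in 0, against 3.25%. The motifs were chosen after the values were seen, and a match describes letters, not binding.

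None of the 9 resident-type members passed in limma. At an unadjusted p under 0.05, 2 of them, Mrc1 and Ms4a4a, were higher, against 13.7% of all genes. Their median log2 fold change was 0.32, and 8 of the 9 were above 0. Mrc1, the mannose receptor CD206, was at 10.19, 9.98 and 10.43 in the mutants against 9.93, 9.80 and 9.62 in the controls, without overlap (0.41, SE 0.14, adjusted p = 0.134, and 0.0478 with sex as a covariate). Its adjusted p was 0.387 without mutant 3. The haemoglobin scavenger receptor Cd163 was at 8.29, 8.24 and 8.57 against 8.16, 8.08 and 8.24 (0.21, SE 0.11, adjusted p = 0.342), where mutant 2 and control 3 met at this rounding. Ms4a4a, a tetraspan protein, differed by 0.58 (SE 0.20, adjusted p = 0.145), the coagulation factor subunit F13a1 by 0.32 (adjusted p = 0.389) and the chemokine Pf4 by 0.29 (adjusted p = 0.233).

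The remaining 4 resident-type genes spread most among the controls, and control 3 was the lowest array for each. Lyve1, a hyaluronan receptor that lymphatic vessels also express, was at 10.26, 10.50 and 10.72 in the mutants against 10.51, 10.13 and 9.22 in the controls (0.54, SE 0.32, adjusted p = 0.39). The folate receptor Folr2 was at 9.10, 8.64 and 9.28 against 9.51, 9.04 and 8.15 (0.11, SE 0.34, adjusted p = 0.892), and the carbonyl reductase Cbr2 at 10.72, 10.67 and 10.85 against 10.76, 10.40 and 9.49 (0.53, SE 0.30, adjusted p = 0.371). The C-type lectin Cd209f had the widest control range of the 34 members, 2.61, at 9.65, 9.10 and 7.04, against a mutant range of 0.30, at 8.48, 8.20 and 8.50. Its log2 fold change was -0.21 (SE 0.61, adjusted p = 0.882), and without control 3 it was -0.98 and passed as lower (adjusted p = 0.0333). Without control 3, Folr2 was at -0.27 and Lyve1 and Cbr2 were each at 0.17, and the median of the 9 genes was 0.17.

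The adipocyte markers moved with these resident-type genes within the controls. Control 1 had the highest and control 3 the lowest adipocyte mean of the 6 arrays, and all 11 measured adipocyte markers were highest in control 1 and lowest in control 3 among the controls. Fat markers were not alone in this. Control 3 was the lowest control for 9 of 10 endothelial and 6 of 6 mast cell markers, against 0 of 18 muscle markers and 32.6% of all genes. Control 1 was the highest control for all 16 pan-macrophage genes. Control 3 was also the only male control. Averaged as deviations from each gene's mean over the 6 arrays, the resident-type genes stood at 0.26, -0.08 and -0.64 for controls 1 to 3, against 0.10, 0.00 and 0.36 for mutants 1 to 3. The mutants did not follow the same order, since mutant 3 had the lowest adipocyte mean of the mutants and the highest resident-type mean. With the adipocyte mean as a covariate, 8 members were higher, against 5.96% of all genes, and 1, Gpnmb, was lower, against 5.80%. They included Lyve1 (0.82, adjusted p = 0.0391) and Cbr2 (0.80, adjusted p = 0.0281), and Cd209f was then at 0.36 (adjusted p = 0.613). The part of fat cells in the resident-type values was not tested beyond this fit.

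**Figure D3:**
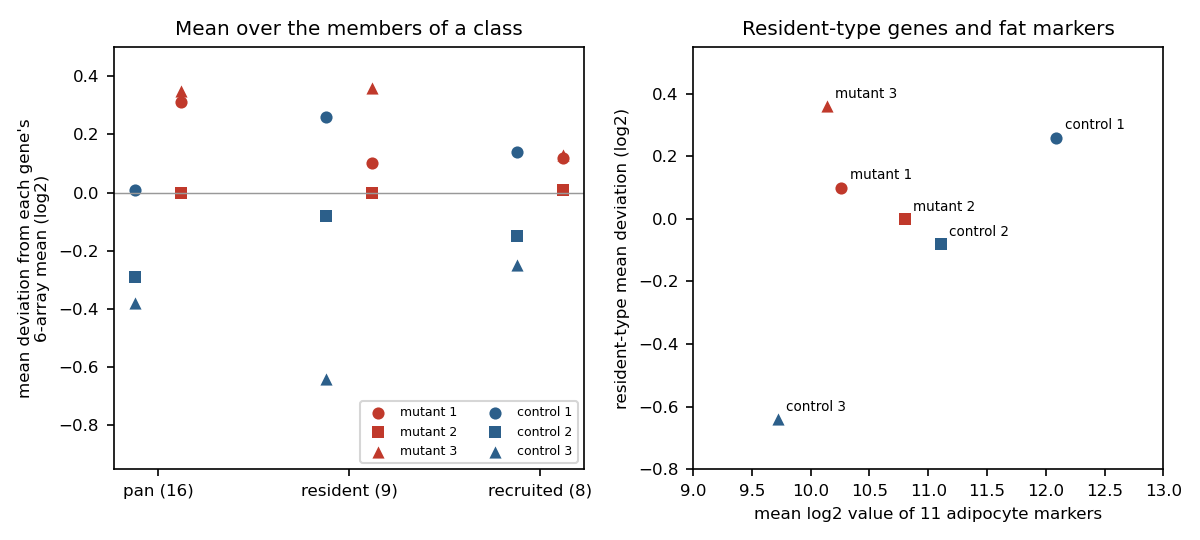
Left, the mean over 16 pan-macrophage, 9 resident-type and 8 recruited-type genes of each gene's deviation from its mean over the 6 arrays (log2, vertical axis), with controls in blue and mutants in red. Right, the resident-type mean against the mean log2 value of 11 adipocyte markers, with control 3 lowest on both axes and control 1 highest on the horizontal axis.

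Of the 8 recruited-type genes 1 rose (Ctsk), none fell and 7 did not pass, where 5.74% of all genes rose. The median log2 fold change was 0.23. Lgals3, or galectin-3, a lectin of activated macrophages, was at 10.25, 9.74 and 10.01 in the mutants against 9.61, 9.20 and 8.91 in the controls, without overlap (0.76, SE 0.20, adjusted p = 0.0681, and 0.0213 with the replicate number as a block). Its adjusted p was 0.236 without mutant 1 and 0.212 without mutant 3. Trem2, a lipid receptor that signals through Tyrobp, was at 8.79, 8.71 and 8.71 against 8.49, 8.40 and 8.30. The difference for Trem2 was 0.34 (SE 0.09, adjusted p = 0.0548), with mutant values within 0.08 of each other. The scavenger receptor Msr1 differed by 0.25 (adjusted p = 0.459), the beta-glucan receptor Clec7a by 0.22 (adjusted p = 0.242) and Cd14, a co-receptor for lipopolysaccharide, by 0.02 (adjusted p = 0.933).

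Gpnmb (Entrez gene 93695), a glycoprotein of lysosomes in lipid-laden macrophages, was at 7.84, 7.83 and 7.70 in the mutants against 8.34, 8.21 and 9.19 in the controls. All mutants lay below all controls, and the control mean was 1.73-fold the mutant mean (log2 fold change -0.79, SE 0.25, 95% confidence interval -1.37 to -0.20, adjusted p = 0.107). Control 3 stood apart, and without it the difference was smaller, -0.48, but passed (adjusted p = 0.0401). It was the lowest control for 22 of the 34 members but the highest array for Gpnmb. Control 3 was also the highest array for the Schwann cell markers S100b (11.57), Erbb3 (11.51), Sox10 (11.45) and Cdh19 (11.63), though not for Gfap and Ncam1. Which cells gave the Gpnmb values was not tested. Gpnmb also passed with sex (-0.96, adjusted p = 0.0331) or the adipocyte mean (-0.98, adjusted p = 0.0236) as a covariate. Its adjusted p was 0.258 without mutant 1 and 0.309 without mutant 3. Cd36, a fatty acid transporter that fat cells and capillaries express as well, was at 11.37, 11.85 and 11.30 against 12.62, 11.98 and 10.75 (-0.28, SE 0.44, adjusted p = 0.769). Its order among the controls was that of the adipocyte markers, and with the adipocyte mean as a covariate it was at 0.18.

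The resident-type and recruited-type members did not separate. Their medians, 0.32 and 0.23, differed by 0.08 before rounding, where the pan-macrophage median was 0.43, and no test was made of a difference between lists. In single arrays the resident-type mean deviation minus the recruited-type mean deviation came to -0.01, -0.01 and 0.23 for mutants 1 to 3, against 0.12, 0.07 and -0.39 for controls 1 to 3. The groups overlapped, and control 3 set the lower end. Without F13a1 and Pf4 on one side and Cd36 and Ctsk on the other, the medians were 0.41 and 0.23. With 1 sample left out, the resident-type median ran from 0.17 without control 3 to 0.49 without control 1, and the recruited-type median from 0.13 without mutant 3 to 0.32 without mutant 2. The difference ran from 0.18 without control 1 to -0.02 without control 3, where its sign turned, and it was also below 0, at -0.03, with the lowest 50% of genes left out. The spread among controls differed between the classes, with a median range of 0.73 for resident-type, 0.44 for recruited-type and 0.38 for pan-macrophage genes, against 0.32, 0.35 and 0.38 among the mutants and 0.27 and 0.22 over all genes.

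**Figure D4:**
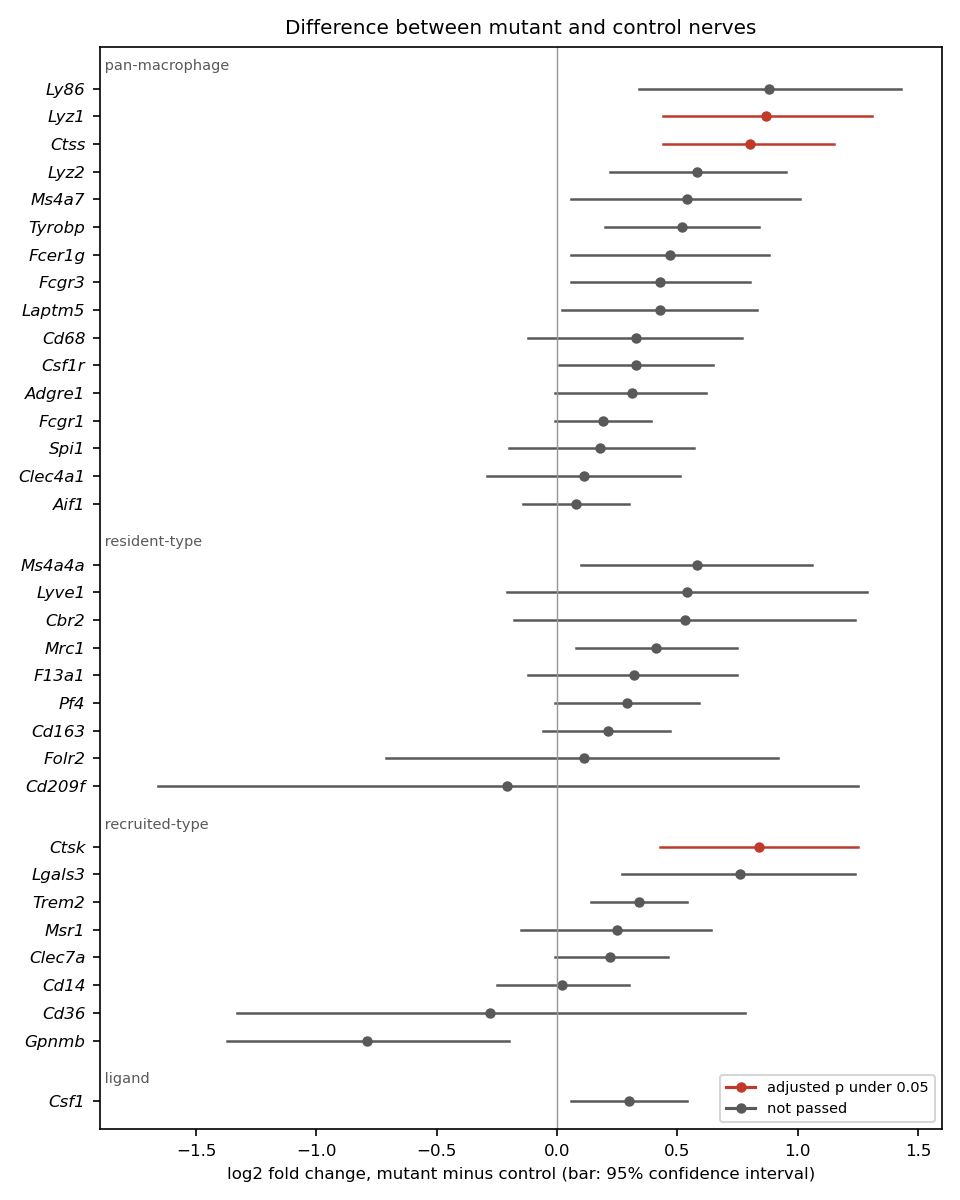
The log2 fold change of each member, mutant minus control, with its 95% confidence interval from limma (horizontal axis), by class. The 3 members in red, Lyz1, Ctss and Ctsk, had an adjusted p under 0.05, and the intervals of Cd209f, Cd36, Folr2, Lyve1 and Cbr2 are the widest.

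Macrophage genes outside the 34 had the same median, 0.33, but this list too was chosen with earlier results known. Of 17 measured, such as the complement C1q genes and Cx3cr1, 16 had a log2 fold change above 0. All 3 mutants lay above all 3 controls for 2 of the 17, against 16.3% of all genes. Of the 17 genes 1 rose, where 5.74% of all genes rose. It was Gas6, a ligand of the TAM receptors that Schwann cells and fibroblasts also make. Gas6 rose from 11.05 ± 0.09 to 12.03 ± 0.05 (mean ± SD, n = 3 each, log2 fold change 0.98, SE 0.08, adjusted p = 0.00117). Cx3cr1, the fractalkine receptor of endoneurial macrophages, was at 9.07 ± 0.27 against 8.71 ± 0.11 (adjusted p = 0.207). Of 18 measured genes of lysosomes and lipid handling none rose and 3 fell, namely the cholesterol exporter Abcg1 (log2 fold change -1.28, adjusted p = 0.00599), the lysosomal lipase Lipa (-0.91, adjusted p = 0.00762) and the cholesterol carrier Npc2 (-0.54, adjusted p = 0.021, and with 1 sample left out passing only without control 2). Over all genes 5.74% rose and 3.89% fell. The median of the 18 genes was 0.00, and they are expressed by many cells of the nerve.

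Of 8 measured monocyte genes 2 rose, where 5.74% of all genes rose. Ccr2, the receptor that draws monocytes into tissue, rose by 0.56 (adjusted p = 0.0471, and with 1 sample left out passing only without mutant 2), and Vcan, a proteoglycan of monocytes and of connective tissue, rose by 1.40 on the log2 scale (adjusted p = 0.00991, passing in all 6 such fits). Of 6 general leukocyte genes 1 rose, the tetraspanin Cd53, by 0.67 (adjusted p = 0.0498, and with 1 sample left out passing only without control 1), while Ptprc, or CD45, was at 8.44 ± 0.15 against 8.27 ± 0.08 (adjusted p = 0.40). The median log2 fold change was 0.21 for monocyte genes and 0.29 for leukocyte genes.

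The lists of other immune cells held no gene that passed, which does not show that none changed. None passed in limma among 9 measured T and NK cell, 5 B cell, 8 neutrophil, 6 mast cell and 7 dendritic cell genes, of which 1, a dendritic cell gene, was higher at an unadjusted p under 0.05. Their medians were -0.02, -0.09, -0.14, 0.17 and 0.11, and all 8 neutrophil genes had a log2 fold change below 0. The T and NK, B cell and neutrophil lists averaged 6.18 to 6.49 on every array. This is below the array medians of 8.02 to 8.11, and at such low values a change may not show. Mast cell markers averaged 7.27 in control 3, against 7.80 to 8.06 in the other arrays. Of 10 endothelial markers 1 fell, the tight junction gene Cldn5 (log2 fold change -0.42, adjusted p = 0.035, and with 1 sample left out passing only without control 2), and their median was -0.08. Fibroblast markers moved with the macrophage genes, with 4 of 10 higher (Lum, Cd34, Fbln1 and Pdgfra), none lower and a median of 0.29. Over all genes 5.74% were higher and 3.89% lower. With 1 sample left out, Lum passed in all 6 fits, Cd34 in 4 (not without mutant 1 or mutant 3), Pdgfra without mutant 2 or control 1 only and Fbln1 without mutant 2 only. Fibroblast markers averaged 12.11, 11.85 and 12.09 in the mutants against 11.78, 11.64 and 11.42 in the controls, and the pan-macrophage genes 9.38, 9.07 and 9.42 against 9.07, 8.78 and 8.69. In both lists mutant 2 was lowest of the mutants, and control 1 highest and control 3 lowest of the controls. The part of connective tissue in the macrophage values was not tested.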

How the data were processed

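The authors deposited 1 table of log2 values for 21225 gene-level probe sets of 6 samples, 3 mutant and 3 control. Per the labels' protocols, Trizol RNA was amplified with an Ambion kit and labelled with biotin. The submitters' processing notes name limma without version or role. The log base was read from the values, and no source used here gives the background correction or normalization. The platform annotation named 20239 probe sets by 1 symbol, 0 by several, and 986 are unnamed here. All named genes went into a two-sided fit by lmFit and eBayes without a block (limma 3.58.1, R 4.3.3), with Benjamini-Hochberg adjustment over all genes. SE and confidence intervals are moderated (6.893 degrees of freedom). The fit was tested on simulated data with independent noise per gene and array, which does not model the muscle and fat differences between these nerves.

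The members, the lists and the classes were chosen with earlier results of these data known. Every sample's values are given for members that passed, for named lineage markers and for the largest 6 changes. Tyrobp, Cbr2, Cd36 and Cd209f, with values in every sample, were added after their values were seen. Of the other lists, the genes that passed are named, besides Zeb2, Ptprc, Il34 and Cx3cr1, the last 2 chosen after their values were seen. Deviations of same-numbered samples correlated at 0.36, 0.574 and 0.295, all over 0.1, so the numbers were treated as pairs in an alternative with a replicate block, although mutant and control samples of different numbers reached 0.303. The labels give no pairing, and every same-numbered mutant and control were of opposite sex by Xist and Y-linked genes. Their muscle marker means were close, at 7.58 and 7.54, 12.25 and 12.38, and 9.56 and 10.1 for numbers 1 to 3. The source of these correlations was not tested. Alternatives changed the filter, scaling, pseudocount (16), prior, weights, block, probe sets, samples and covariates. Figures were drawn with matplotlib 3.10.9. No protein sequences and no probe sequences were used here.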

Additional observations from a re-analysis of the deposited data

How the results depend on the processing

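The number of the 34 members that were higher was 3 as reported, 8 with the adipocyte score as a covariate, 17 with array weights, 8 (of 26 tested) with the lowest 50% of genes left out, 5 with the muscle score as a covariate and 6 under the replicate block. Over all genes 5.74% were higher as reported, 5.96% with the adipocyte score and 11.9% with array weights. The share was 11.2% with the lowest 50% left out, 5.41% with the muscle score and 5.95% under the block. With 1 sample left out, the number of members higher ran from 0 to 7, where 2.48% to 6.90% of all genes were higher. The number lower was 0 as reported, 1 with the adipocyte score or sex as a covariate, in both cases Gpnmb, and 0 to 2 with 1 sample left out. The cause was not tested. The block changed the call of no member other than Lyz2, Ly86 and Lgals3. Under every alternative run the class medians moved by less than the SD of the class mean between replicates. This SD was 0.2 for pan-macrophage, 0.35 for resident-type and 0.15 for recruited-type genes, beside medians of 0.43, 0.32 and 0.23. For the difference between the resident-type and recruited-type medians, 0.08, it was 0.22. Limits as wide as these cannot show that the medians were stable. The difference turned sign under 2 of the alternatives. Signs of single genes turned only for members that had not passed as reported. With 1 sample left out, Clec4a1 ran from -0.01 to 0.26, Folr2 from -0.27 to 0.41 (-0.03 without mutant 3), Cd209f from -0.98 to 0.32 (0.05 without control 2), Cd14 from -0.04 to 0.12 and Cd36 from -0.80 to 0.14. Cd209f was also at 0.36 with the adipocyte score and at 0.21 with sex as a covariate and at 0.15 without both muscle-rich samples, Cd36 at 0.18 with the adipocyte score, and Cd14 at -0.03 with median centring. In all, of 637 pairs of member and alternative, 563 kept direction and call, 44 gained a call, 15 lost one and 15 turned sign. Arrays of 3 mice per group limit these values, and no measure of signal over background was used here.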
